A study of Mus musculus with 6 samples.

Results

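Astrocytes are the glial cells that keep the extracellular fluid of the brain in order, and the 10 genes described here encode parts of that housekeeping. They are the water channel gene Aqp4, the gap junction genes Gja1 and Gjb6, the glutamine synthetase gene Glul, the folate enzyme gene Aldh1l1, the calcium-binding protein gene S100b, the growth factor receptor gene Fgfr3, the ATPase gene Atp13a4, and Mlc1 and Hepacam, whose products form a membrane complex. The genes were taken by symbol from the deposited table of 53465 genes, where each of the 10 had 1 row. No rule on measured values set the choice, but earlier results of these data were known when it was made. All 10 were among the 17561 genes tested.

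The tissue was the right hippocampus, taken from male mice of the strain C57BL/6J, and its RNA was sequenced. In the tMCAO group (3 libraries), a filament had closed the right middle cerebral artery for 50 min and was then withdrawn, a model of ischemic stroke with reperfusion called transient middle cerebral artery occlusion. The Sham group (3 libraries) is given by that word alone. Mice of both groups carry the same strain name in the genotype field, no transgene is given, and the protocol of both groups includes a saline perfusion under chloral hydrate before dissection and oligo-dT selection of mRNA. For age and for the interval from occlusion to dissection, the labels and series text used here give no value. Values are FPKM, read or fragment numbers scaled by gene length and library, so levels can be set side by side between genes.

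Astrocytes take up glutamate released at synapses and convert it to glutamine, which neurons take back. They also clear potassium, move water through the endfeet that wrap blood vessels, and share ions and metabolites through gap junctions that join them into a network. After injury astrocytes become reactive, a state marked by the filament gene Gfap, and the genes described here are commonly read as markers of the resting, supporting functions.

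The libraries held 57774583 to 66130196 reads assigned to genes after tMCAO and 39011689 to 46259705 in Sham, as recovered from the FPKM. The members had 484 to 92944 reads per library, which gives a counting error of at most 4.5%. Of the 8 hippocampal markers, all 8 were above 0 in every library, with summed levels of 98.5 to 135 FPKM after tMCAO and 115 to 139 FPKM in Sham. The sums hide differences of single markers between libraries. Prox1 had 6.08, 5.82 and 1.75 FPKM in tMCAO 1, 2 and 3, against 6.21, 2.09 and 6.43 FPKM in Sham 1, 2 and 3. Fibcd1, Lct, Dsp and Zbtb20 were likewise lowest of their groups in tMCAO 3 and Sham 2. Wfs1 was highest in both, Mpped1 highest in tMCAO 3 only, and Neurod6 lowest in Sham 2 only. The same pair of libraries, tMCAO 3 and Sham 2, also stood apart in markers of neighbouring regions. The 8 striatal markers summed to 105, 71.8 and 511 FPKM in tMCAO 1, 2 and 3, against 119, 595 and 142 FPKM in Sham 1, 2 and 3. The 7 choroid plexus markers ran the other way, at 592, 355 and 9.79 FPKM after tMCAO, against 656, 25.6 and 732 FPKM in Sham. Summed thalamic markers were lowest in the same libraries, at 18.1 FPKM in tMCAO 3 and 15.9 FPKM in Sham 2, against 42.4 to 51.6 FPKM in the other 4. No marker of these 3 lists was at 0 in any library. In bulk tissue, fewer cells of a type and less RNA per cell cannot be told apart.

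After tMCAO, 2 of the 10 genes rose and 0 fell. Gjb6 and Fgfr3 were each 1.58 times the Sham level. The test was limma on log2(FPKM + 1) over all tested genes, two-sided, with Benjamini-Hochberg adjustment, and a gene passed at an adjusted p below 0.05. By the same rule 8.93% of all tested genes were higher and 7.28% lower, and no statement about the 10 genes as a group is read from a count of 2. At an unadjusted p below 0.05, 3 members were higher and 0 lower, and limma-voom on the recovered reads also called 2 higher and 0 lower. In the authors' deposited table, 2 of the 10 had an adjusted p below 0.05, both higher in tMCAO, beside 20.2% of its genes in either direction and 10.8% higher in tMCAO. The 3 libraries of each group did not overlap for 3 members, against 43.4% of all tested genes. The median log2 fold change of the 10 was 0.14, beside 0.00 over all tested genes, and 7 of the 10 lay above 0. With 3 libraries against 3, the exact permutation test cannot give a p below 0.10.

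**Figure D1:**
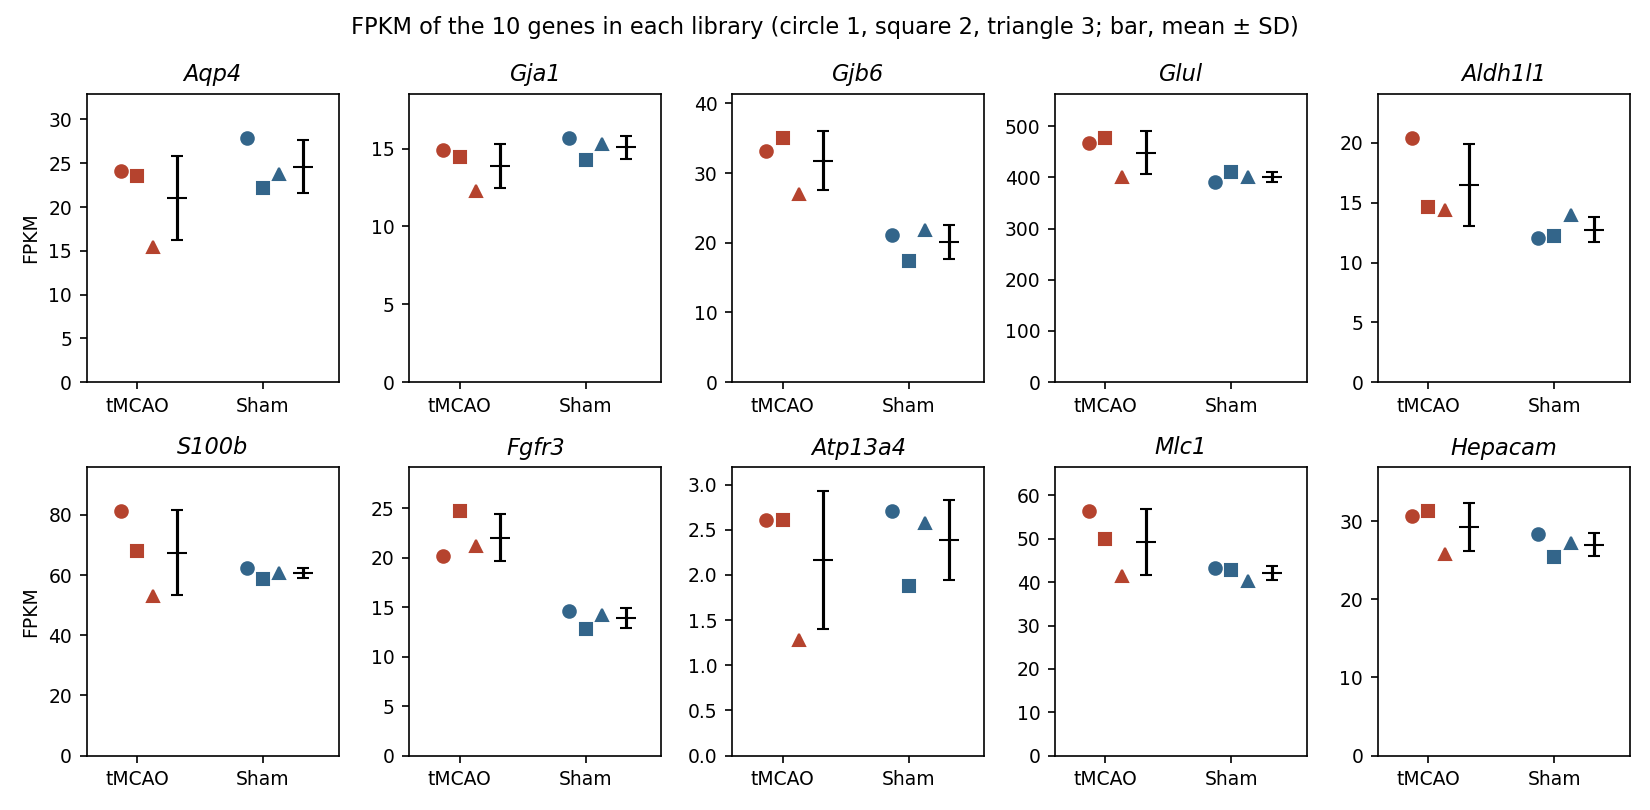
FPKM of each of the 10 genes in each library, 1 panel a gene, with tMCAO left of Sham; points are libraries (circle 1, square 2, triangle 3) and bars are means with SD (n = 3 each). The groups are apart for Gjb6, Fgfr3 and Aldh1l1, and the SD was larger after tMCAO than in Sham for each of the 10 genes.

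To set the genes that rose beside one that did not, the 200 bases before the earliest start annotated by RefSeq or GENCODE M21 are shown for Gjb6, Fgfr3 and Gja1, the other main connexin gene of astrocytes. The sequences are RefSeq's, on GRCm38.p6, written 5′ to 3′ on the strand of the gene. The windows are chr14:57133612-57133811 (minus strand) for Gjb6, chr5:33721474-33721673 (plus strand) for Fgfr3 and chr10:56377100-56377299 (plus strand) for Gja1. Capitals mark a match to 1 of 5 motifs, each searched on both strands: AP-1 (TGANTCA), STAT (TTCCNGGAA), NFI (TTGGC), SOX (ACAATG) and the CCAAT box (CCAAT).
Gjb6: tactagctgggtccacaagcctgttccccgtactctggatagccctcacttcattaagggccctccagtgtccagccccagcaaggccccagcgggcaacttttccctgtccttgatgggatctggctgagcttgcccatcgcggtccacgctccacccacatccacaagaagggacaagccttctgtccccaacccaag
Fgfr3: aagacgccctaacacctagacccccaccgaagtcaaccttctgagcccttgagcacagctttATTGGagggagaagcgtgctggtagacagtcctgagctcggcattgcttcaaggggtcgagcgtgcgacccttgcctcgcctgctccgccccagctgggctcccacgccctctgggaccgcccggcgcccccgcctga
Gja1: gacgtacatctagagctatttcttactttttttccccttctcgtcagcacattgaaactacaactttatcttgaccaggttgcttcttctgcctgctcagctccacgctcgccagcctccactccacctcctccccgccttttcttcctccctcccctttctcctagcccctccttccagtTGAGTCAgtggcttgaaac
The Gjb6 window held none of the 5 motifs, the Fgfr3 window held 1 CCAAT box on the other strand, and the Gja1 window held 1 AP-1 match near its 3′ end. Over 32851 windows of the same length, 29.3% held a CCAAT box, 5.48% AP-1, 0.761% STAT, 35.6% NFI and 8.58% SOX. The NFI and CCAAT patterns can overlap each other, which they did not in these windows. Fgfr3 had the most CpG-rich window of the 3, with 14 CpG and 65.0% GC, against 5 CpG and 59.5% GC for Gjb6, 5 CpG and 51.5% GC for Gja1, and medians of 5 CpG and 53.0% GC over all windows. A letter match is a description and not a binding site, and the motifs were chosen after the values were seen.

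Gjb6 and Gja1 encode connexin proteins, Cx30 and Cx43, which together build the gap junctions between astrocytes. Gjb6 (ENSMUSG00000040055, chr14:57123303-57133611, minus strand, GRCm38 with GENCODE M21) had 33.2, 35.1 and 27.1 FPKM in the tMCAO libraries, against 21.1, 17.4 and 21.9 FPKM in the Sham libraries. Every tMCAO library lay above every Sham library, and the lowest tMCAO value was that of tMCAO 3. The means were 31.8 ± 4.21 FPKM after tMCAO and 20.1 ± 2.41 FPKM in Sham (SD, n = 3 each), a log2 fold change of 0.63 (SE 0.126, 95% interval 0.34 to 0.93, limma adjusted p = 0.0236, exact permutation p = 0.10). The call was kept with the striatal level as a covariate (0.55, adjusted p = 0.00625) and without both libraries rich in striatal markers (0.64, adjusted p = 0.0144). It was lost when tMCAO 1 (adjusted p = 0.0617), tMCAO 2 (0.0547), Sham 1 (0.078), Sham 2 (0.0727) or Sham 3 (0.0797) was left out, with log2 fold changes of 0.54 to 0.69. In the authors' deposited table, whose sign is Sham over tMCAO, Gjb6 had a log2 fold change of -0.66 with an adjusted p of 0.000263.

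Gja1 (ENSMUSG00000050953, chr10:56377330-56402513, plus strand) had 14.9, 14.5 and 12.3 FPKM after tMCAO, against 15.7, 14.3 and 15.3 FPKM in Sham. The groups overlapped, with tMCAO 3 the lowest library. The means were 13.9 ± 1.42 FPKM after tMCAO and 15.1 ± 0.742 FPKM in Sham (SD, n = 3 each), a log2 difference of -0.12 (95% interval -0.33 to 0.10, limma adjusted p = 0.385), and the interval leaves out a rise as large as that of Gjb6.

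Within each library, the level of Gjb6 was set against that of Gja1, which needs no scaling between libraries. The ratio of Gjb6 to Gja1 was 2.23, 2.42 and 2.21 after tMCAO, against 1.34, 1.22 and 1.43 in Sham. The ratio was higher in all 3 tMCAO libraries than in any Sham library, and tMCAO 3 and Sham 2 lay close to the others of their groups. On the log2(FPKM + 1) scale the ratio averaged 1.14 ± 0.075 after tMCAO and 0.39 ± 0.11 in Sham (SD, n = 3 each), a difference of 0.75. The exact two-sided permutation p was 0.10, the smallest that 20 assignments allow, and 0.20 after Benjamini-Hochberg adjustment over the 2 ratios tested.

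**Figure D2:**
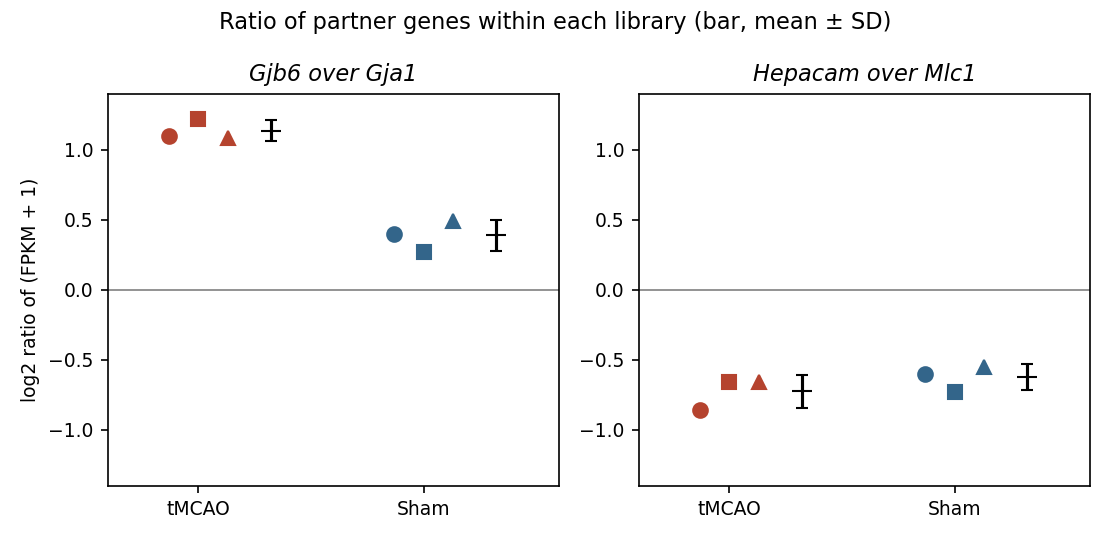
Log2 ratio of (FPKM + 1) of Gjb6 over Gja1 (left) and Hepacam over Mlc1 (right) within each library, with tMCAO left of Sham; points are libraries (circle 1, square 2, triangle 3) and bars are means with SD (n = 3 each). Gjb6 over Gja1 ran from 1.08 to 1.22 after tMCAO and from 0.27 to 0.49 in Sham, while the Hepacam over Mlc1 ratios overlapped.

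Among 10 tested genes of other connexins, pannexins and the junction scaffold, 0 rose and 2 fell, with a median log2 fold change of -0.20. Here and in the lists below, counts stand beside 8.93% of all tested genes higher and 7.28% lower. No list was tested as a set. At an unadjusted p below 0.05, limma had 2 higher and 4 lower, and limma-voom also called 0 higher and 2 lower after adjustment. Tjp1, which encodes the scaffold ZO-1 that binds connexins, fell to 12.1 ± 1.02 FPKM after tMCAO, against 15.3 ± 0.631 FPKM in Sham (SD, n = 3 each), a log2 fold change of -0.32 (limma adjusted p = 0.0408). The Tjp1 call was lost without any library but tMCAO 2 (adjusted p up to 0.14).

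Gjb2, a further astrocyte connexin gene, lies 18.6 kb from Gjb6 on chromosome 14 and was singled out after its values were seen. It had 15.2, 12.1 and 5.23 FPKM after tMCAO, against 5.34, 4.47 and 4.37 FPKM in Sham, so tMCAO 1 and 2 were high and tMCAO 3 lay within the Sham range. Its log2 difference of 0.94 (SE 0.328) did not pass (limma adjusted p = 0.0902). Without tMCAO 3 it was 1.35 (adjusted p = 0.00437) and without both Sham 2 and tMCAO 3 it was 1.32 (adjusted p = 0.0144). With library weights it was 1.09 (adjusted p = 0.00903). Gjb2 passed in no other alternative. It was 0.66 without tMCAO 1 (adjusted p = 0.204), 0.82 without tMCAO 2 (0.203) and 1.05 with limma-voom (0.143). Without 1 Sham library the adjusted p was up to 0.22.

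Fgfr3 encodes a receptor tyrosine kinase for fibroblast growth factors that is carried by astrocytes in the adult brain. Fgfr3 (ENSMUSG00000054252, chr5:33721674-33737068, plus strand) had 20.1, 24.7 and 21.2 FPKM after tMCAO, against 14.7, 12.8 and 14.3 FPKM in Sham. The groups did not overlap, and tMCAO 3 was not the lowest of its group here. The means were 22.0 ± 2.39 FPKM after tMCAO and 13.9 ± 1.0 FPKM in Sham (SD, n = 3 each), a log2 fold change of 0.63 (SE 0.0962, 95% interval 0.40 to 0.85, limma adjusted p = 0.0146, exact permutation p = 0.10). The call was lost without Sham 1 (adjusted p = 0.0616), Sham 2 (0.0542) or Sham 3 (0.0702), with log2 fold changes of 0.57 to 0.66. It was kept without both Sham 2 and tMCAO 3 (0.59, adjusted p = 0.0349) and with the striatal covariate (0.59, adjusted p = 0.0105). In the authors' deposited table, Sham over tMCAO, Fgfr3 had a log2 fold change of -0.66 with an adjusted p of 6.83e-06. Of its exon length, 13.9% is shared with the antisense gene G630022F23Rik, and no source used here says whether reads were counted by strand. That gene had 2.17, 2.14 and 2.01 FPKM after tMCAO, against 1.53, 1.36 and 1.47 FPKM in Sham, so part of its reads and those of Fgfr3 cannot be told apart.

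Among 21 other tested genes of FGF signalling, 2 rose and 2 fell, with a median log2 fold change of -0.02. The ligand gene Fgf2 rose to 3.32 ± 0.712 FPKM after tMCAO, against 1.75 ± 0.189 FPKM in Sham (SD, n = 3 each), a log2 fold change of 0.64 (limma adjusted p = 0.027), and 13.2% of its exon length is shared with Nudt6 and a predicted gene. Spry2, a feedback inhibitor of receptor tyrosine kinases, rose to 24.2 ± 0.20 FPKM after tMCAO, against 17.4 ± 1.85 FPKM in Sham (0.46, limma adjusted p = 0.0205). The others that changed went down. Etv5, a transcription factor gene induced by FGF signalling in many tissues, fell to 17.7 ± 3.20 FPKM after tMCAO, against 28.2 ± 2.34 FPKM in Sham (-0.66, limma adjusted p = 0.0261). Dusp6, which encodes an ERK phosphatase, fell to 12.9 ± 0.616 FPKM after tMCAO, against 16.2 ± 1.28 FPKM in Sham (-0.30, limma adjusted p = 0.0465). Dusp6 lost its call without any 1 of the 6 libraries, Fgf2 without any but tMCAO 3, Etv5 without any 1 Sham library and Spry2 without Sham 1 or Sham 3, with adjusted p up to 0.17, 0.10, 0.098 and 0.092 in that order. Dusp6 also did not pass with eBayes without trend (adjusted p = 0.0553) or with limma-voom (0.0561). The sister receptor genes Fgfr1 (0.30, limma adjusted p = 0.291) and Fgfr2 (-0.16, limma adjusted p = 0.334) did not pass.

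**Figure D3:**
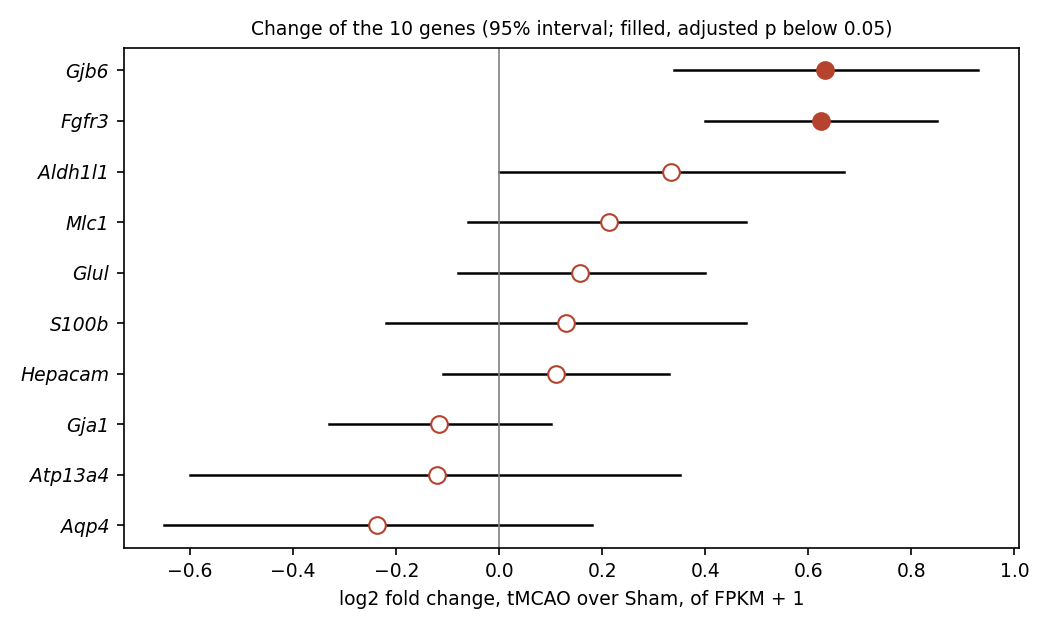
Log2 fold change of each of the 10 genes, tMCAO minus Sham on log2(FPKM + 1), with 95% limma intervals (n = 3 each); filled points passed at adjusted p below 0.05. The intervals of Gjb6 (0.34 to 0.93) and Fgfr3 (0.40 to 0.85) lie well above 0, and those of 7 genes include it.

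Aldh1l1 encodes a cytosolic folate dehydrogenase and is widely used as a general astrocyte marker. Aldh1l1 (ENSMUSG00000030088, chr6:90486427-90600203, plus strand) had 20.4, 14.6 and 14.4 FPKM after tMCAO, against 12.1, 12.2 and 14.0 FPKM in Sham. The groups did not overlap, but tMCAO 2 and 3 lay close to Sham 3 and only tMCAO 1 stood well above. The means were 16.5 ± 3.43 FPKM after tMCAO and 12.7 ± 1.06 FPKM in Sham (SD, n = 3 each), and the log2 difference of 0.33 (SE 0.14) did not pass (limma adjusted p = 0.137). Without tMCAO 1 the difference was 0.18. The antisense gene Gm15756 shares 11% of the exon length and had 19.1, 12.7 and 13.9 FPKM after tMCAO, against 11.1, 10.8 and 12.1 FPKM in Sham, also highest in tMCAO 1.

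Of 16 other tested genes of folate metabolism, 2 rose and 1 fell, with a median log2 fold change of 0.10. Gldc, a subunit of the glycine cleavage system, fell to 4.22 ± 0.577 FPKM after tMCAO, against 7.29 ± 1.06 FPKM in Sham (SD, n = 3 each), a log2 fold change of -0.67 (limma adjusted p = 0.0207). Mthfd1l, a mitochondrial enzyme that releases formate from folate, rose to 4.43 ± 0.342 FPKM after tMCAO, against 3.07 ± 0.134 FPKM in Sham (0.41, limma adjusted p = 0.0232). Shmt1, the cytosolic serine hydroxymethyltransferase, rose to 1.75 ± 0.129 FPKM after tMCAO, against 1.06 ± 0.137 FPKM in Sham (0.42, limma adjusted p = 0.0276). All 3 calls were lost without any 1 Sham library, that of Shmt1 also without tMCAO 2 (adjusted p up to 0.10). Aldh1l2, the mitochondrial relative of Aldh1l1, had 1.47 ± 0.140 FPKM after tMCAO and 1.48 ± 0.110 FPKM in Sham (-0.01, limma adjusted p = 0.938).

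Mlc1 encodes a membrane protein of astrocyte junctions, and Hepacam encodes GlialCAM, the adhesion protein that brings MLC1 to those junctions. Mutations of either human gene cause a leukodystrophy with swollen white matter. Mlc1 (ENSMUSG00000035805, chr15:88955884-88979007, minus strand) had 56.4, 50.1 and 41.4 FPKM after tMCAO, against 43.3, 42.7 and 40.2 FPKM in Sham. tMCAO 1 and 2 lay above all Sham libraries and tMCAO 3 among them. The means were 49.3 ± 7.56 FPKM after tMCAO and 42.1 ± 1.62 FPKM in Sham (SD, n = 3 each), and the log2 difference of 0.21 (95% interval -0.06 to 0.48) did not pass (limma adjusted p = 0.226). It passed as higher without tMCAO 3 (0.33, adjusted p = 0.032) and with library weights (0.25, adjusted p = 0.0494).

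Hepacam (ENSMUSG00000046240, chr9:37367351-37386575, plus strand) had 30.7, 31.3 and 25.7 FPKM after tMCAO, against 28.3, 25.4 and 27.2 FPKM in Sham. Here too tMCAO 1 and 2 were the highest libraries and tMCAO 3 lay within the Sham range. The means were 29.2 ± 3.04 FPKM after tMCAO and 27.0 ± 1.46 FPKM in Sham (SD, n = 3 each), a log2 difference of 0.11 (95% interval -0.11 to 0.33, limma adjusted p = 0.427). The ratio of Hepacam to Mlc1 within each library was 0.544, 0.625 and 0.623 after tMCAO, against 0.654, 0.595 and 0.675 in Sham. These overlapped, with a difference of -0.10 on the log2 scale (exact permutation p = 0.30, also after adjustment).

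Potassium uptake and volume regulation depend on channels and pumps that share the astrocyte membrane with MLC1. Of 13 such genes, 2 rose and 1 fell, with a median log2 fold change of -0.04. Slc4a4, the sodium bicarbonate cotransporter, fell to 13.1 ± 1.30 FPKM after tMCAO, against 17.7 ± 0.348 FPKM in Sham (SD, n = 3 each), a log2 fold change of -0.41 (limma adjusted p = 0.0236). Lrrc8a, the required subunit of the volume-regulated anion channel, rose to 5.60 ± 1.25 FPKM after tMCAO, against 2.88 ± 0.486 FPKM in Sham (0.76, limma adjusted p = 0.027). Its value is uncertain, since 68.3% of its exon length is shared with overlapping genes. Kcnk1, a background potassium channel, rose to 44.9 ± 4.26 FPKM after tMCAO, against 35.5 ± 1.26 FPKM in Sham (0.33, limma adjusted p = 0.0428), and did not pass in 9 of 18 alternatives. Slc4a4 lost its call without tMCAO 2 or any 1 Sham library (adjusted p up to 0.099) and Lrrc8a without any library but tMCAO 3 (up to 0.084). Kcnj10, the main inward rectifier potassium channel gene of astrocytes, had 36.2 ± 4.78 FPKM after tMCAO and 40.2 ± 2.05 FPKM in Sham (-0.15, limma adjusted p = 0.337). Kcnj16, a related gene of this list looked at after its values were seen, fell just short of passing (-0.68, limma adjusted p = 0.0521). It had 3.77 ± 1.24 FPKM after tMCAO and 6.46 ± 0.425 FPKM in Sham.

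Aqp4 encodes the water channel that is anchored in the perivascular endfeet. Aqp4 (ENSMUSG00000024411, chr18:15389496-15410982, minus strand) had 24.1, 23.5 and 15.5 FPKM after tMCAO, against 27.9, 22.1 and 23.8 FPKM in Sham. tMCAO 1 and 2 lay inside the Sham range and tMCAO 3 well below it. The means were 21.02 ± 4.83 FPKM after tMCAO and 24.6 ± 2.999 FPKM in Sham (SD, n = 3 each), a log2 difference of -0.24 (95% interval -0.65 to 0.18, limma adjusted p = 0.366, exact permutation p = 0.50). Without tMCAO 3 the difference was -0.04, and with the striatal covariate it was -0.34 (adjusted p = 0.0568).

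AQP4 is held at the endfoot by a dystrophin complex that binds the basal lamina. Of 15 genes of this complex and its laminin ligands, 1 rose and 3 fell, with a median log2 fold change of -0.15. Utrn, which encodes the dystrophin relative utrophin, fell to 2.72 ± 0.208 FPKM after tMCAO, against 4.81 ± 0.358 FPKM in Sham (SD, n = 3 each), a log2 fold change of -0.64 (limma adjusted p = 0.0109). Dtna, encoding the adaptor alpha-dystrobrevin, fell to 8.16 ± 0.469 FPKM after tMCAO, against 10.98 ± 0.463 FPKM in Sham (-0.39, limma adjusted p = 0.0211). Sgce, a sarcoglycan gene, fell to 1.80 ± 0.121 FPKM after tMCAO, against 2.505 ± 0.0338 FPKM in Sham (-0.32, limma adjusted p = 0.0353). The laminin subunit gene Lamc1 rose to 6.74 ± 0.603 FPKM after tMCAO, against 4.79 ± 0.202 FPKM in Sham (0.42, limma adjusted p = 0.0241). Utrn lost its call without Sham 1 or Sham 3 (adjusted p up to 0.06), and Dtna and Lamc1 without any 1 Sham library (up to 0.093 and 0.11), as did Sgce, also without tMCAO 1 or tMCAO 2 (up to 0.14) or with no filter on low values (0.0505). Dmd, the dystrophin gene, chosen after its values were seen, had 2.35 ± 0.323 FPKM after tMCAO and 2.72 ± 0.134 FPKM in Sham (-0.15, limma adjusted p = 0.283). Vascular cells also express genes of this list. Summed endothelial markers were 46.5 to 64.6 FPKM after tMCAO and 51.2 to 54.0 FPKM in Sham (1 of 8 higher, 3 lower), and pericyte markers 39.6 to 47.2 FPKM after tMCAO and 53.9 to 56.6 FPKM in Sham (0 of 6 higher, 2 lower). No marker of these lists was at 0, and their part in these counts was not tested.

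Glul encodes glutamine synthetase, the astrocyte enzyme that turns glutamate and ammonia into glutamine. Glul (ENSMUSG00000026473, chr1:153899944-153909723, plus strand) had 466.79, 478.01 and 400.2 FPKM after tMCAO, against 392.03, 410.47 and 399.96 FPKM in Sham. tMCAO 1 and 2 were the highest libraries, and tMCAO 3 lay within the Sham range. The means were 448.34 ± 42.1 FPKM after tMCAO and 400.82 ± 9.25 FPKM in Sham (SD, n = 3 each), a log2 difference of 0.16 (95% interval -0.08 to 0.40, limma adjusted p = 0.302). With quantile normalization the difference was 0.00.

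Of 15 genes of the glutamate and glutamine cycle, 2 rose and 3 fell, with a median log2 fold change of -0.01. The calls with the smallest adjusted p were all glutamine carriers of the Slc38 family. Slc38a3, a glutamine exporter of astrocytes, fell to 6.83 ± 0.815 FPKM after tMCAO, against 13.5 ± 2.004 FPKM in Sham (SD, n = 3 each), a log2 fold change of -0.88 (limma adjusted p = 0.0122). Slc38a5, a relative with the same transport mode, fell to 0.250 ± 0.154 FPKM after tMCAO, against 1.72 ± 0.373 FPKM in Sham (-1.12, limma adjusted p = 0.00987). Slc38a5 reached the filter of a mean of 0.5 FPKM only through its Sham values. Slc38a2, a carrier that takes up neutral amino acids with sodium, rose to 64.3 ± 7.26 FPKM after tMCAO, against 31.0 ± 2.96 FPKM in Sham (1.02, limma adjusted p = 0.00808). Slc38a1, a related carrier found mainly in neurons, fell to 23.1 ± 1.81 FPKM after tMCAO, against 29.0 ± 1.05 FPKM in Sham (-0.32, limma adjusted p = 0.0376). Slc38a2 and Slc38a5 lost their calls without Sham 3 (adjusted p = 0.051 each), Slc38a3 without Sham 1 or Sham 3 (up to 0.057), and Slc38a1 without tMCAO 2 or any 1 Sham library (up to 0.15) or with limma-voom (0.0537). The glutamate uptake genes, looked at after their values were seen, did not pass. Slc1a2 had 176.36 ± 21.8 FPKM after tMCAO and 189.48 ± 16.4 FPKM in Sham (-0.11, limma adjusted p = 0.55), and Slc1a3 58.3 ± 2.85 FPKM after tMCAO and 59.1 ± 7.54 FPKM in Sham (-0.01, limma adjusted p = 0.942).

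S100b encodes a calcium-binding protein that astrocytes and some oligodendrocytes make and release. S100b (ENSMUSG00000033208, chr10:76253853-76261159, plus strand) had 81.3, 67.9 and 53.1 FPKM after tMCAO, against 62.4, 58.8 and 60.8 FPKM in Sham. The tMCAO libraries ran from above the Sham range to below it. The means were 67.4 ± 14.1 FPKM after tMCAO and 60.7 ± 1.80 FPKM in Sham (SD, n = 3 each), and the log2 difference of 0.13 (95% interval -0.22 to 0.48, limma adjusted p = 0.559) was -0.01 without tMCAO 1. Summed oligodendrocyte markers ran in the same order over the tMCAO libraries, at 1440, 1040 and 718 FPKM, against 1090, 885 and 1080 FPKM in Sham. Of these 10 markers, 0 were higher and 1 lower by limma (0 and 3 at an unadjusted p below 0.05, 0 and 1 with limma-voom), none was at 0, and their part in the S100b values was not tested.

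Of 6 tested genes among the other S100 genes and their receptor gene Ager, 3 rose and 0 fell, with a median log2 fold change of 0.54, and 0 were lower at an unadjusted p below 0.05 or with limma-voom. S100a6 rose to 9.62 ± 1.12 FPKM after tMCAO, against 3.20 ± 0.605 FPKM in Sham (SD, n = 3 each), a log2 fold change of 1.34 (limma adjusted p = 0.00546), and passed without any 1 library. S100a10, whose product binds annexin A2, rose to 18.0 ± 3.66 FPKM after tMCAO, against 9.69 ± 1.65 FPKM in Sham (0.82, limma adjusted p = 0.0259). Ager, encoding the receptor RAGE that binds S100B, rose to 0.898 ± 0.167 FPKM after tMCAO, against 0.338 ± 0.0798 FPKM in Sham (0.50, limma adjusted p = 0.0234). Ager reached the filter of a mean of 0.5 FPKM only through its tMCAO values, which limits its place in the count. S100a10 lost its call without any library but tMCAO 3 (adjusted p up to 0.094), and Ager without tMCAO 1 or any 1 Sham library (up to 0.099).

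Atp13a4 encodes a P5-type ATPase, a family of intracellular membrane pumps that includes polyamine transporters. It was the least abundant of the 10. Atp13a4 (ENSMUSG00000038094, chr16:29395853-29544864, minus strand) had 2.60, 2.61 and 1.28 FPKM after tMCAO, against 2.71, 1.88 and 2.57 FPKM in Sham. tMCAO 3 was lowest after tMCAO and Sham 2 in Sham, the same libraries that were rich in striatal markers. The means were 2.16 ± 0.766 FPKM after tMCAO and 2.39 ± 0.443 FPKM in Sham (SD, n = 3 each), and the log2 difference of -0.12 (95% interval -0.60 to 0.35, limma adjusted p = 0.695) was 0.10 without tMCAO 3. Of the 4 other P5-type ATPase genes, 0 rose and 1 fell, with a median log2 fold change of 0.06. At an unadjusted p below 0.05, limma had 1 higher and 1 lower, and limma-voom called 0 higher and 1 lower. The gene that fell was Atp13a5, at 2.002 ± 0.561 FPKM after tMCAO, against 3.34 ± 0.0952 FPKM in Sham (-0.55, limma adjusted p = 0.0455), and it did not pass with a pseudocount of 0.1 (adjusted p = 0.053), with no filter on low values (0.0557) or without any 1 Sham library (up to 0.13).

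The order of the levels was much the same in both groups at its ends. Glul was highest and Atp13a4 lowest, and both stood apart from their neighbours in each group. After tMCAO the order ran Glul, S100b, Mlc1, Gjb6, Hepacam, Fgfr3, Aqp4, Aldh1l1, Gja1 and Atp13a4. The library ranges of S100b and Mlc1 overlapped there, as did those of Gjb6 and Hepacam and those of each neighbouring pair from Fgfr3 to Gja1. In Sham the order was Glul, S100b, Mlc1, Hepacam, Aqp4, Gjb6, Gja1, Fgfr3, Aldh1l1 and Atp13a4, with overlapping ranges for Hepacam and Aqp4 and for each neighbouring pair from Gja1 to Aldh1l1. Gjb6 thus stood ahead of Aqp4 after tMCAO and behind it in Sham. The Sham ranges lay close, at 22.1 to 27.9 FPKM for Aqp4 and 17.4 to 21.9 FPKM for Gjb6. The place of Aqp4 also depends on the gene length behind its FPKM, which differs from GENCODE M21.

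Within a group, the 10 genes moved together by library. tMCAO 3 was the lowest tMCAO library for 9 of 10 genes, with Fgfr3 the exception, while it was lowest for 36.2% of all tested genes. Sham 2 was the lowest Sham library for 7 of 10 genes, against 37.2% of all tested genes. The median deviation of the 10 genes from their own group mean was 0.15, 0.10 and -0.19 on the log2 scale in tMCAO 1, 2 and 3, and 0.06, -0.08 and 0.02 in Sham 1, 2 and 3, with 0.00 over all tested genes in each library. The low libraries of both groups were those rich in striatal and poor in choroid plexus markers. Of the hippocampal markers, Prox1, Fibcd1, Lct, Dsp and Zbtb20 were also lowest in these libraries, while Wfs1 was highest and Mpped1 and Neurod6 were mixed. The part of dissection in these values was not tested. Without both libraries, Gjb6 (0.64, 0.63 with them) and Fgfr3 (0.59, 0.63 with them) were again the 2 members called higher, and 0 were called lower by limma. Of the genes in the 10 lists of related genes, 27 were then higher and 9 lower, against 28 and 18 with all 6 libraries. The named list genes that did not pass then were Ager, Atp13a5, Dtna, Dusp6, Gldc, Kcnk1, Lamc1, Mthfd1l, Sgce, Shmt1, Slc38a1, Slc4a4 and Tjp1 (adjusted p of 0.0508 to 0.113).

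**Figure D4:**
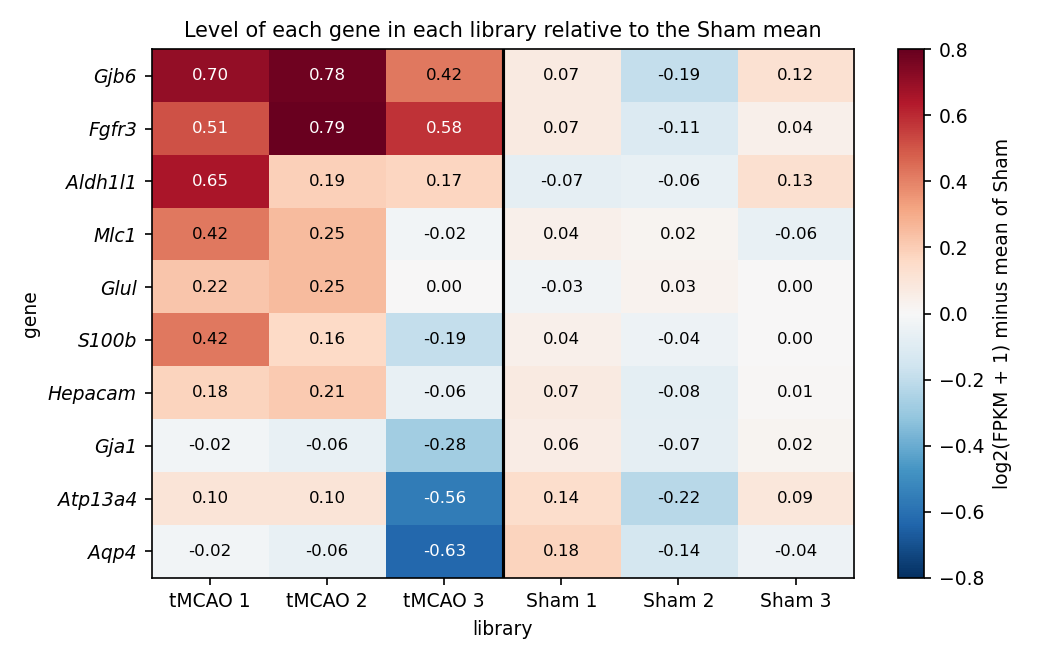
Log2(FPKM + 1) of each gene minus its Sham mean, as a colour and a number for each library, tMCAO libraries left of Sham. In tMCAO 3, Gjb6 (0.42) and Fgfr3 (0.58) stayed above the Sham mean, while Aqp4 (-0.63), Atp13a4 (-0.56) and Gja1 (-0.28) lay below it.

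For the members at the ends of the test, the 5 genes with the most similar profile were looked up, by the root mean square difference of the log2 deviations over the 6 libraries. For Fgfr3, these were Retsat (0.0556), Ppfibp2 (0.066), Col5a3 (0.0682), Klf15 (0.0712) and Asprv1 (0.0733). Each was higher in every tMCAO library than in any Sham library, as Fgfr3 was, and each had its lowest Sham value in Sham 2. For Atp13a4, they were Igfbp2 (0.0403), Smo (0.0518), Nhsl1 (0.0531), Ifi27 (0.0581) and Stip1 (0.0644). All 5 were lowest in tMCAO 3 within tMCAO and in Sham 2 within Sham, like Atp13a4. These shared patterns follow from the way the genes were picked and are a description only. Predicted gene models and members were left out of the search.

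Other genes by which astrocytes are recognised went both ways. Of 32 tested, 3 rose and 5 fell, with a median log2 fold change of -0.14, beside 8.93% higher and 7.28% lower over all tested genes. At an unadjusted p below 0.05, limma had 4 higher and 9 lower, and limma-voom called 3 higher and 4 lower after adjustment. The log2 fold change lay above 0 for 11 of the 32, beside 8784 of all 17561 tested genes. Htra1, a secreted serine protease, rose to 79.8 ± 1.401 FPKM after tMCAO, against 39.7 ± 1.48 FPKM in Sham (SD, n = 3 each), a log2 fold change of 0.99 (limma adjusted p = 0.00225). Cbs, an enzyme of sulphur amino acid metabolism, rose to 15.0 ± 0.848 FPKM after tMCAO, against 8.90 ± 0.737 FPKM in Sham (0.70, limma adjusted p = 0.00975). Grm3, a metabotropic glutamate receptor, fell by 1.29 on the log2 scale (limma adjusted p = 0.00909). Slc7a10, a serine and alanine transporter, fell to 8.60 ± 1.78 FPKM after tMCAO, against 17.0 ± 1.09 FPKM in Sham (-0.92, limma adjusted p = 0.0149), and 17.9% of its exon length is shared with Lrp3. Htra1 passed without any 1 library, while Cbs did not without Sham 1 (adjusted p = 0.053), Grm3 without Sham 3 (0.051) or Slc7a10 without any 1 Sham library (up to 0.07).

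Reactive astrocyte genes, described as a contrast to the 10, rose in 13 of 15 tested cases, with 0 lower and a median log2 fold change of 1.33. At an unadjusted p below 0.05, 14 were higher and 0 lower, and limma-voom called 10 higher and 0 lower. Without Sham 3 only 2 passed, without Sham 1, 3, without Sham 2, 5, and without tMCAO 1 or tMCAO 2, 8 each. This rise in the series was known when the list was made. Osmr, Steap4 and Cxcl10 had Sham means of 0.454, 0.176 and 0.0698 FPKM. They reached the filter of a mean of 0.5 FPKM only through their tMCAO values, which limits their place in the counts. Gfap, the astrocyte filament gene, had 186.25, 168.48 and 99.27 FPKM after tMCAO, against 59.9, 36.8 and 62.2 FPKM in Sham, lowest in tMCAO 3 and Sham 2 as were most of the 10 genes. Timp1, a metalloproteinase inhibitor, rose to 19.3 ± 6.22 FPKM after tMCAO, against 1.34 ± 0.435 FPKM in Sham (SD, n = 3 each), a log2 fold change of 3.08 (limma adjusted p = 0.00371). Osmr, a receptor of oncostatin M, rose to 3.10 ± 0.592 FPKM after tMCAO, against 0.454 ± 0.0549 FPKM in Sham (1.49, limma adjusted p = 0.00403). Stat3, a transcription factor activated by such receptors, rose to 11.6 ± 1.92 FPKM after tMCAO, against 5.59 ± 0.1002 FPKM in Sham (0.93, limma adjusted p = 0.00987), and Serpina3n, a protease inhibitor, by 2.48 on the log2 scale (limma adjusted p = 0.00987). Timp1 and Osmr passed without any 1 library, Serpina3n not without Sham 3 (adjusted p = 0.051), and Stat3 not without Sham 1 or Sham 3 (up to 0.055). Gfap (limma adjusted p = 0.0223 with all 6 libraries), when 1 library was left out, passed only without tMCAO 3 (otherwise up to 0.076). Microglial markers summed to 92.5 to 116 FPKM after tMCAO and 124 to 143 FPKM in Sham (4 of 8 lower), and blood leukocyte markers to 1.74 to 24.5 FPKM after tMCAO and 0.431 to 0.773 FPKM in Sham, with Ly6c2, Plac8, S100a8 and S100a9 at 0 in at least 1 library. Their part in these results was not tested.

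**Figure D5:**
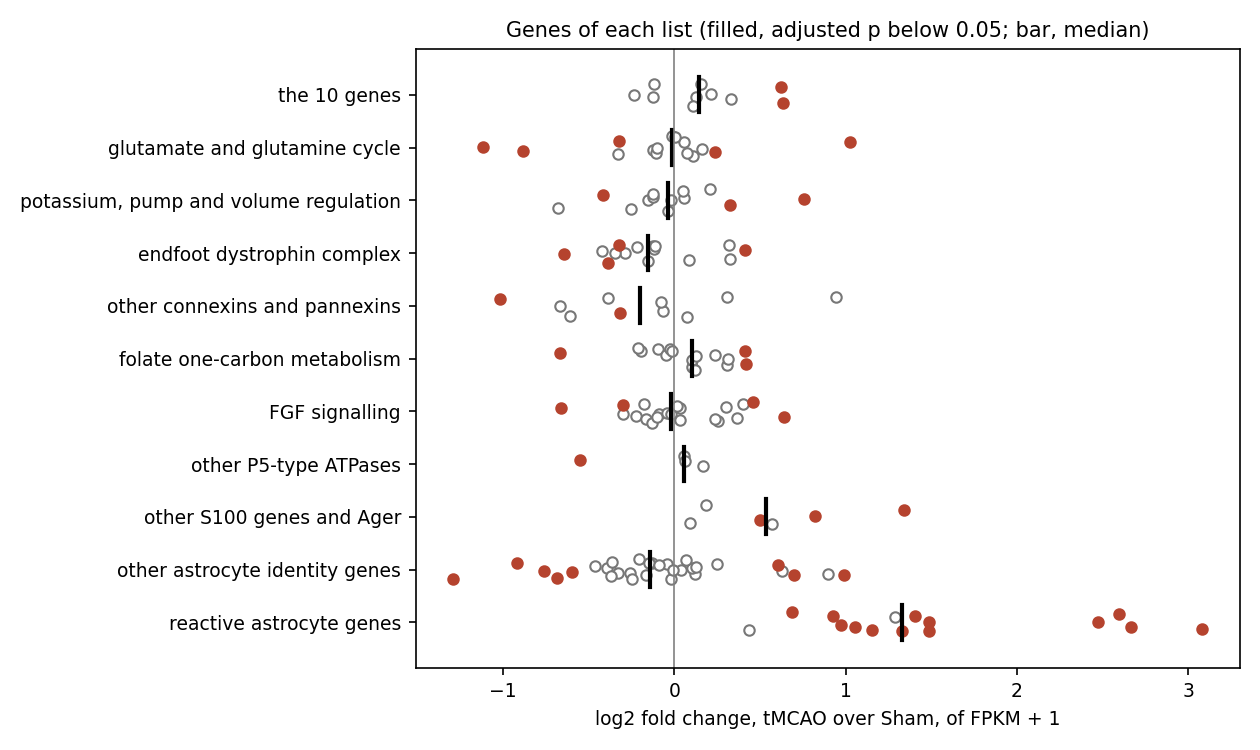
Log2 fold change, tMCAO minus Sham, of the 10 genes and of every tested gene in 10 lists of related genes; each point is a gene, filled where it passed, and the line is the median. Reactive astrocyte genes (median 1.33) lie to the high side, while the medians of the 10 genes (0.14) and of the other lists, between -0.20 for other connexins and 0.54 for other S100 genes, lie nearer to 0.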

How the data were processed

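RNA was measured in 6 libraries, 3 tMCAO and 3 Sham, grouped by the treatment given in the labels. The Sham columns carry sample titles, whereas tMCAO 1 to 3 are column numbers. Nothing in the labels ties each library to its own animal, so p-values measure only how far these samples spread, which may be technical. The authors deposited FPKM per gene, and a comparison table of 22647 genes with a deposited log2 fold change (Sham over tMCAO), p-value and adjusted p-value. Per the submitters' processing notes the build was mm10, and the sources used here do not give the aligner, counting program, strand setting or the authors' test. FPKM of the 2 tables differed by at most 1.8e-12.

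Each library's FPKM were multiples of what 1 read adds, in all 36452 genes above 0 (100%). This holds by construction where fewer than 3 libraries are above 0 and has weight for the 30195 others. The recovered reads gave the depths and a limma-voom alternative. Of these 30195, 28231 had an implied length that matches GENCODE M21. In the others, the reads may share a divisor and be undercounted. Aqp4 is among them, with an implied length of 5082 bases against 6233 in GENCODE M21. These lengths are not whole multiples of each other, so its FPKM may rest on a length other than that of GENCODE M21. Gene positions are from GENCODE M21, and 9 of 10 members had a RefSeq promoter entry.

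The fit used limma 3.58.1 in R 4.3.3 (lmFit, eBayes with trend) on log2(FPKM + 1), without rescaling. It covered 17561 genes with a mean FPKM of at least 0.5 and was tried on simulated data. Those data had independent values with the Sham spread in both groups. They do not cover a wider spread after tMCAO or shifts shared by genes within a library. Fold changes on the log2(FPKM + 1) scale understate changes of low genes. Exact permutation tests used 20 assignments. Members and lists were chosen with earlier results of these data known. All members are named, and of each list up to 4 passing genes, lowest adjusted p first (where none passed, the 2 most abundant), and Gfap whatever its values. The 5 most similar genes are named for the members with the smallest and the largest adjusted p. Other genes are said to be chosen after their values were seen, as were Kcnj10, Fgfr1, Fgfr2 and Aldh1l2. Values of some list genes are not reported here, though every count includes them. Alternatives were a pseudocount of 0.1, a filter of 2 FPKM or none, eBayes without trend, scaling to an equal sum, by quantiles or by median ratios, library weights, voom, the table of all genes, a striatal covariate, leaving out each library, and leaving out Sham 2 with tMCAO 3.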

Additional observations from a re-analysis of the deposited data

How the results depend on the processing

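No paired analysis was possible because the labels number the samples S1 to S6, and nothing ties a column numbered 1 to 3 in tMCAO to the one with that number in Sham. Over 18 alternatives, 0 members were called lower. Leaving out 1 library gave 0 to 3 members called higher, 5 to 40 genes of the 10 lists called higher and 0 to 16 called lower, beside 2, 28 and 18 with all 6 libraries. Over all tested genes it gave 58 to 2166 higher and 17 to 1734 lower, beside 1569 and 1278. The lowest counts came without Sham 3 and the highest without tMCAO 3. The striatal covariate gave 28 list genes lower and 1939 tested genes lower, leaving out Sham 2 and tMCAO 3 gave 9 list genes lower, and library weights gave 2681 higher and 2232 lower. Rescaling to an equal sum gave 1051 higher and 1599 lower, with the median of all genes moved by -0.057. S100b (-0.01 to 0.29 when 1 library was left out) turned to -0.01 without tMCAO 1 and Atp13a4 (-0.23 to 0.10) to 0.10 without tMCAO 3. The cause was not tested. The other 8 members kept their direction, with Glul at 0.00 under quantile normalization. Without 1 library, the log2 ratio difference was 0.69 to 0.80 for Gjb6 over Gja1 and -0.15 to -0.04 for Hepacam over Mlc1. Of 33 named list genes that passed, 4 passed in every alternative that tested them, 29 did not, and 0 changed direction. The members had a counting error of at most 4.5% in a library. The part of read depth in their spread over 3 libraries a group was not tested.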
